A study of Rattus norvegicus with 48 samples.

Results

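A set of 10 genes of bone morphogenetic protein (BMP) signalling were followed through the back of the rat eye after removal of the ovaries and with age. They were chosen by gene symbol, as 3 ligands (Bmp2, Bmp4, Bmp7), 2 receptors (Bmpr1a, Bmpr2), 2 secreted antagonists (Grem1, Chrdl1) and 3 target genes (Id1, Id2, Id3), and are 10 of the 32883 genes in each deposited count table. All 10 were present in both tables, and all 10 passed the filter on low counts in both tissues. RNA was sequenced from the retina and from a sample labelled posterior eye in each of 24 female Long-Evans rats, which gave 48 libraries. The animals were young (3 to 4 months) or middle-aged (9 to 10 months, called aged here). Each had either ovariectomy (OVX), which removes the ovaries, or sham surgery, which leaves them in place. Age crossed with surgery therefore gave 4 groups of 6 libraries in each tissue (sham or OVX, young or aged), and no group carried a further treatment or an engineered allele. Middle age limits the aged groups as a model of old age.

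BMPs are secreted dimers of the transforming growth factor beta family. They bind a pair of type I and type II receptor kinases, which phosphorylate SMAD1, SMAD5 and SMAD9; with SMAD4 these enter the nucleus and switch on target genes, among which the Id genes are the most direct. Secreted antagonists hold the ligands away from the receptors. In the developing eye BMP4 and BMP7 are needed for lens and optic cup formation and for dorsal retinal identity, and in the adult eye the pathway has been studied in glia, pigment epithelium and the outflow tissues. The design asks whether loss of the ovaries alters expression in each tissue, and whether age changes that response.

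The promoters of the 3 Id genes are shown because these genes report signalling directly and because, as given further on, pairs of them varied together between animals. The windows come from RefSeq, build GRCr8, and run from 250 bases before to 50 bases after the annotated start, 5′ to 3′ in the direction of the gene. Capitals mark matches to TATAA or CCAAT on either strand, the cores of the TATA and CCAAT boxes, which overlap no other motif searched in these windows. These 2 motifs were searched after the sequences had been seen. Id1 lies on the plus strand at chr3:161671314-161671613, Id2 on the minus strand at chr6:47470946-47471245 and Id3 on the plus strand at chr5:153656041-153656340.
Id1: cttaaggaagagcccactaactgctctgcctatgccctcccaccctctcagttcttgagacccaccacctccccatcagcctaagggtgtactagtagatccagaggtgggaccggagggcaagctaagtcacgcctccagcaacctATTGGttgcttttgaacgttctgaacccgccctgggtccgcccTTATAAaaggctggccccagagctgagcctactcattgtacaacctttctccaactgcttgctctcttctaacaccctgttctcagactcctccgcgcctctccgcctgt
Id2: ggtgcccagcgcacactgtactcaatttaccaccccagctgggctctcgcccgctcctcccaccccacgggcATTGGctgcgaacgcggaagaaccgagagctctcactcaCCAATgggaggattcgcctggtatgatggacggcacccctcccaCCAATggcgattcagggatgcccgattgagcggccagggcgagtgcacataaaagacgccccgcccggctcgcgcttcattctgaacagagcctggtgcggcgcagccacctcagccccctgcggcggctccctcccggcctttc
Id3: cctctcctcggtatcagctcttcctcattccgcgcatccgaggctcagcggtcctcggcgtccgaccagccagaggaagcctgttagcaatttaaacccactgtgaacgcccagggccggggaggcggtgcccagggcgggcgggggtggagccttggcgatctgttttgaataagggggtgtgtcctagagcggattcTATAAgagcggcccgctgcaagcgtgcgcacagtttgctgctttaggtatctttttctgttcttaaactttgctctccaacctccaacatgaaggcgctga

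Id1 held 2 overlapping TATAA matches, at 60 and 59 bases before the start, and Id3 held 1 at 51 bases before it, whereas the Id2 window held none and carried 3 CCAAT matches. Of all 33469 RefSeq windows of this length, 26.2% held TATAA and 37.5% held CCAAT. A further 3 motifs were searched on both strands in the 8 member windows used here (those of Bmp2 and Bmp7 were not used). GGCGCC, the core of a BMP response element, was found in the Grem1 window (at 91 bases before the start) and in 11.0% of all windows. GTCTAGAC, the SMAD palindrome, occurred in 0.197% of all windows and in no member window, and the palindromic oestrogen response element (GGTCA and TGACC with 3 bases between them) occurred in 0.0269% and in no member window. A match is a run of letters and was not tested as a binding site. Sequence outside the windows was not searched, so a motif absent here may lie farther from the start.

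Depth ran from 12916146 to 30737547 counts per retina library and from 11470945 to 22971367 per posterior eye library, and the fits over all genes tested 15481 genes in the retina, 16401 in the posterior eye and 17153 across both. The tissue labels were checked against defining markers. Col1a1, a fibroblast collagen, lay between 797 and 3260 CPM (read counts scaled to the library total) in posterior eye libraries against 0.146 to 4 in the retina. Rpe65, of the retinal pigment epithelium, ran from 123 to 564 CPM in posterior eye libraries and reached at most 56.4 among retina libraries. Posterior eye libraries were mixed and uneven, with a mean rod marker level from 1.67 to 10.17 log2 CPM, and skeletal muscle and melanocyte genes were present throughout. Retina libraries were uneven in lens markers. Their summed level ran from 4090 to 46700 CPM in young sham and 11400 to 45800 in young OVX retina. It ran from 2590 to 20000 in aged sham and 3390 to 26700 in aged OVX retina. Summed skeletal muscle markers reached 445 CPM in young sham retina. Fewer cells of a type and less RNA per cell cannot be told apart in such bulk samples. The common biological coefficient of variation, the fitted spread between animals of a group, was 12% for the retina and 33.4% for the posterior eye.

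Of the 10 genes, 9 were higher in the posterior eye than in the retina and 1, Chrdl1, was lower, in a fit over all 48 libraries. The target Id1 had the largest difference of the 10, at 3.18 ± 0.083 (SE) on the log2 scale, followed by Grem1 and Bmp4. The receptors and Chrdl1 differed least between the tissues. All 10 passed the test (edgeR quasi-likelihood, adjusted p under 0.05), against 93.0% of all genes tested, 47.8% higher and 45.2% lower, so that passing it is not particular to them. The size of the difference was also counted: 7 of 10 members were more than 2-fold higher in the posterior eye, against 29.7% of all genes, and the members' median log2 difference was 1.75 against 0.047 over all genes.

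The ligands carry the signal between cells. On a scale shared by both tissues, Bmp2, a ligand best known for inducing bone, averaged 5.54 ± 1.58 CPM in the retina (SD, n = 24) and 18.25 ± 3.39 in the posterior eye, a log2 difference of 1.73 ± 0.10 (SE). Bmp4, a ligand that specifies dorsal retina in development, went from 5.62 ± 2.06 to 24.12 ± 4.44 CPM, a difference of 2.12 ± 0.10. Bmp7, a ligand needed for eye formation, went from 12.58 ± 2.64 to 43.13 ± 8.75 CPM, a difference of 1.78 ± 0.089. For each ligand, every one of 24 animals had the higher level in its posterior eye, and the highest retina library lay below the lowest posterior eye library, as it did for 27.5% of all genes (24.6% of all genes were separated in the opposite direction).

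The receptors were close to equal in the tissues. Bmpr1a, a type I receptor kinase, averaged 47.11 ± 4.28 CPM in the retina (SD, n = 24) and 51.14 ± 5.38 in the posterior eye, a log2 difference of 0.12 ± 0.041 (SE, edgeR adjusted p = 0.00709). Bmpr2, the type II receptor that activates it, averaged 66.07 ± 7.99 and 83.41 ± 9.27 CPM, a difference of 0.34 ± 0.045. The ranges of the tissues overlapped for both receptors, although the posterior eye was the higher in 21 of 24 animals for Bmpr1a and in 23 of 24 for Bmpr2.

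The 2 antagonists lay in opposite directions. Grem1, which encodes gremlin, averaged 0.721 ± 0.277 CPM in the retina, where single libraries held as few as 4 reads of it, against 3.23 ± 1.10 CPM in the posterior eye, a difference of 2.16 ± 0.17. Chrdl1, which encodes chordin-like 1, averaged 32.84 ± 4.59 CPM in the retina and 26 ± 3.62 in the posterior eye, a difference of -0.34 ± 0.055 (adjusted p = 2.56e-07). Chrdl1 was higher in the posterior eye in 3 of 24 animals and the tissues' ranges overlapped, and for Grem1 the ranges overlapped although all 24 animals were higher in the posterior eye.

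The Id genes encode helix-loop-helix proteins that bind and block other transcription factors of that class. Id1 averaged 13.98 ± 1.78 CPM in the retina and 126.6 ± 26.7 in the posterior eye, 9.06 times as much (edgeR adjusted p = 5.48e-33). Id2 averaged 22.23 ± 2.58 and 86.92 ± 17.8 CPM, a log2 difference of 1.96 ± 0.074. Id3 averaged 65.48 ± 6.39 and 173.0 ± 38.7 CPM, a difference of 1.40 ± 0.074. All 24 animals were higher in the posterior eye for each Id gene, with no overlap between the tissues, so that 6 of 10 members were separated in this direction. Without the 12 posterior eye libraries whose mean rod gene level was above 8 log2 CPM, all 10 genes still passed in the same direction, with Id1 at 3.32 and Chrdl1 at -0.41.

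**Figure D1:**
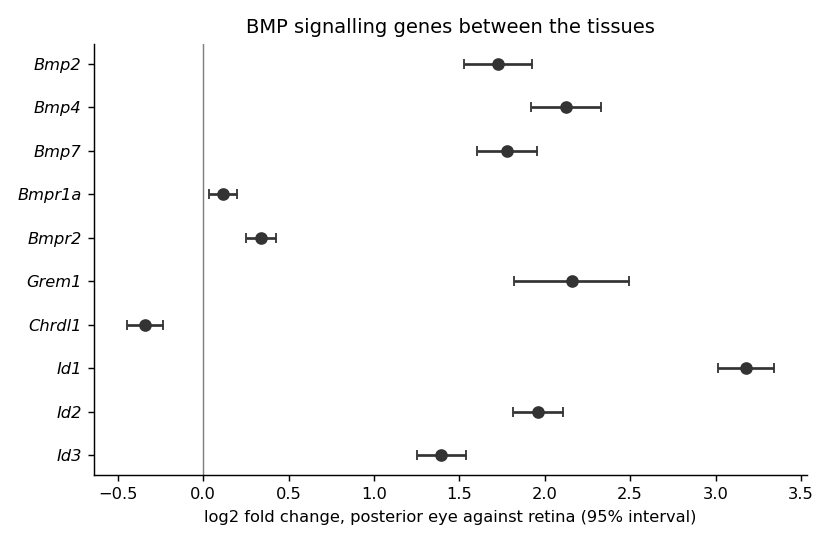
Log2 fold change between posterior eye and retina (x axis) for each of the 10 BMP signalling genes (y axis), with points for the edgeR estimates over 48 libraries and bars for 95% intervals. Id1 lies farthest to the right at 3.18, the receptors lie near 0, and Chrdl1 at -0.34 is the only gene to the left of it.

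Of 49 further genes of the pathway, 43 could be tested between the tissues, and 41 passed, 28 of them higher and 13 lower in the posterior eye, a share near the 93.0% of all genes, with a median log2 difference of 1.15. Among 15 antagonists 11 were higher, among 9 receptors 6, among 7 ligands 4, among 7 targets 5 and among 5 transducers 2. The 5 with the smallest p were all higher in the posterior eye. These were Eng, the endothelial co-receptor endoglin, at 4.15 ± 0.085 (SE), Bmp6, a ligand, at 3.91 ± 0.081, and Acvrl1, the endothelial type I receptor, at 2.88 ± 0.076. Bmp3, a ligand that opposes other BMPs, stood at 4.07 ± 0.11 and Fst, the activin and BMP antagonist follistatin, at 4.76 ± 0.14.

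None of the 10 genes passed the test for OVX against sham in either tissue at either age. In the retina of young animals 0 of 10 were called against 0.0194% of all genes, and in aged animals 0 of 10 against 0.00646%. The young contrast of the posterior eye had 0 of 10 called against 0.00610% of all genes, and the aged contrast 0 of 10 against 0%. For the mean of both ages 0 of 10 were called in the retina (0.0517% of all genes) and in the posterior eye (0% of all genes). DESeq2 and limma-voom called none of the 10 in these contrasts either. At an unadjusted p under 0.05 by edgeR there were 2 members in young retina, 0 in aged retina and 1 for the mean, against 11.7%, 6.47% and 10.8% of all genes, and 1, 0 and 3 in the posterior eye, against 6.24%, 2.57% and 5.72%. The ranges of OVX and sham libraries overlapped for all 10 genes in both tissues and at both ages. The share of all genes with such overlap was not counted, so whether this overlap is particular to the members is not known.

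**Figure D2:**
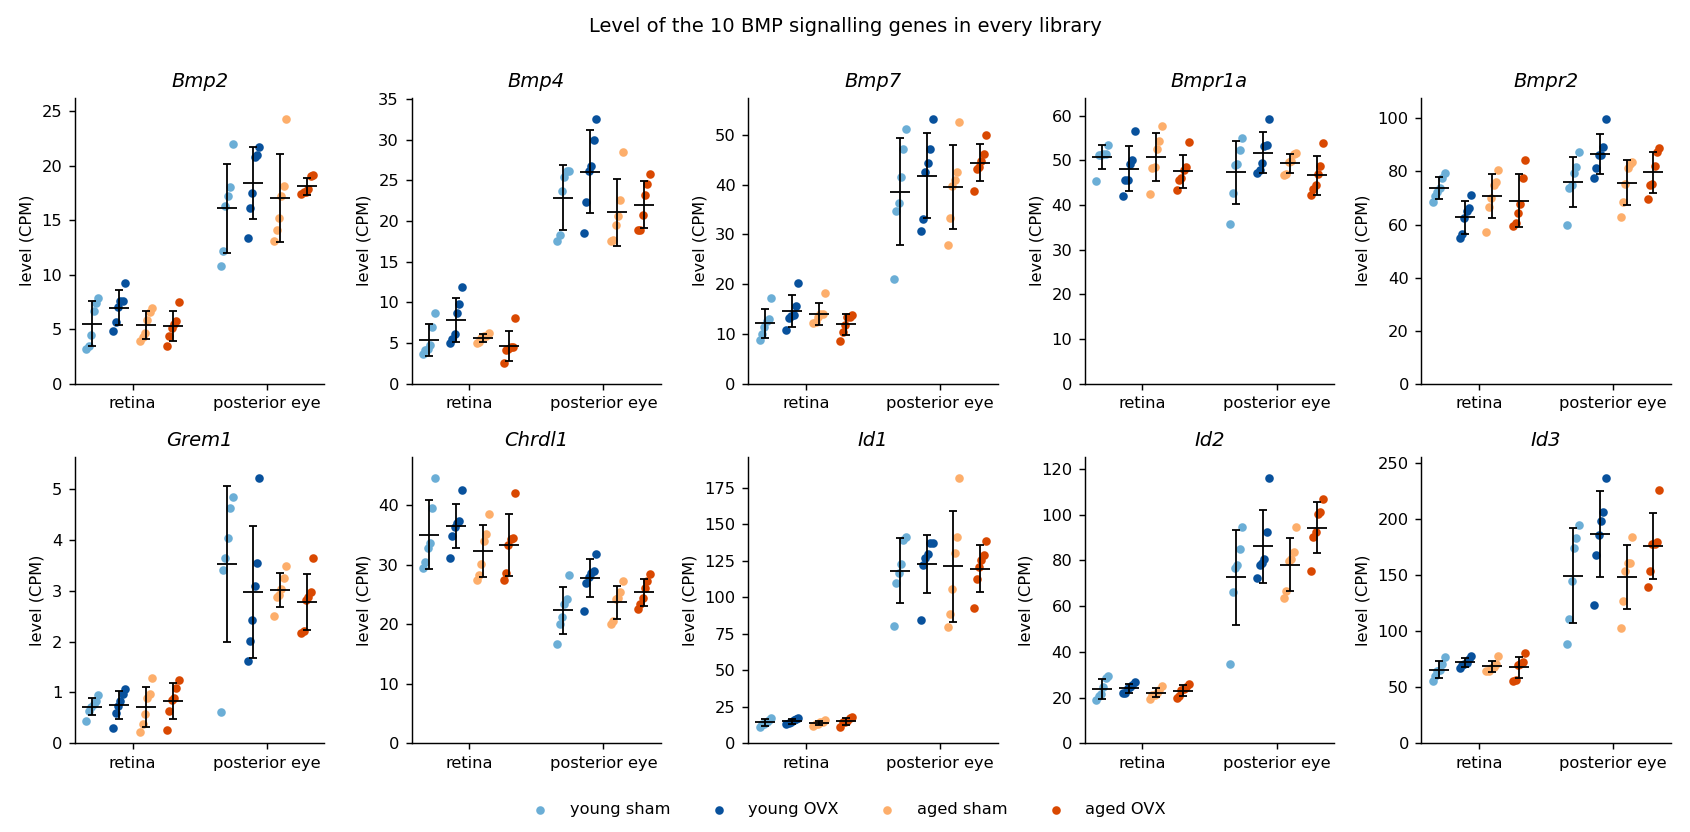
Level in CPM (y axis, 1 panel per gene, scaled within each tissue) of the 10 BMP signalling genes in all 48 libraries, by tissue and group (x axis). Points are libraries, long bars group means and whiskers ± 1 SD (n = 6). Groups overlap within a tissue for every gene, while the ligands and the Id genes of the posterior eye lie above every retina library.

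Group levels are given as mean ± SD (n = 6) in CPM scaled within a tissue. In the retina Bmp2 stood at 5.51 ± 2.05 in young sham, 6.99 ± 1.59 in young OVX, 5.39 ± 1.28 in aged sham and 5.27 ± 1.38 in aged OVX animals. Posterior eye levels of Bmp2 were 16.10 ± 4.08, 18.41 ± 3.31, 17.01 ± 4.03 and 18.11 ± 0.79 in the same order. Neighbours in the order of the 4 group means differed by less than the larger SD of the pair in both tissues, and this held for all 10 genes. Neighbours are the closest pairs by construction, so this does not cover groups farther apart in the order. Bmpr2 of young sham and young OVX retina, for example, differed by more than the larger SD.

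Bmp4 had the largest group differences of the ligands in the retina. Its lowest, median and highest levels there were 3.64, 4.52 and 8.65 CPM in young sham, 4.96, 7.44 and 11.92 in young OVX, 5.00, 5.74 and 6.24 in aged sham, and 2.54, 4.36 and 8.07 in aged OVX animals. The young OVX group reached highest and the aged OVX group lowest, and every pair of groups overlapped. The log2 fold change for OVX was 0.53 ± 0.23 (SE) in young retina, with a 95% interval of 0.073 to 0.98 (adjusted p = 0.381), and -0.28 ± 0.24 in aged retina, or -0.49 ± 0.23 there without aged OVX animal 23, the highest of its group. Posterior eye means of Bmp4 were 22.86 ± 3.97 CPM in young sham, 26.06 ± 5.08 in young OVX, 21.06 ± 4.07 in aged sham and 22.02 ± 2.94 in aged OVX animals.

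Bmp7 followed the same order of groups as Bmp4 in the retina. The lowest, median and highest Bmp7 levels were 8.83, 11.90 and 17.18 CPM in young sham, 10.72, 13.76 and 20.21 in young OVX, 12.27, 13.66 and 18.23 in aged sham, and 8.57, 12.55 and 13.88 in aged OVX retina. All 4 groups overlapped. The log2 fold change for OVX was 0.27 ± 0.15 in young and -0.24 ± 0.15 in aged retina (adjusted p = 0.838 for the latter), and the aged value was -0.15 ± 0.15 without aged sham animal 18, the highest of its group. Posterior eye levels of Bmp7 were 38.59 ± 10.7 CPM in young sham, 41.81 ± 8.54 in young OVX, 39.44 ± 8.41 in aged sham and 44.38 ± 3.71 in aged OVX animals.

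Markers of the pigment epithelium, a layer outside the retina, moved with the retina groups in the same order as Bmp4 and Bmp7. Of 9 markers all 9 were measured and none was at 0; their mean level was 3.81 ± 0.28 log2 CPM in young sham, 4.40 ± 0.24 in young OVX, 4.30 ± 0.43 in aged sham and 3.58 ± 0.21 in aged OVX retina. Their summed level ran from 185 to 324, 239 to 405, 259 to 633 and 161 to 221 CPM in the same groups. Within groups, the levels of Bmp4 and of these markers had r = 0.154 and rho = 0.17 (permutation p = 0.417 and 0.444, adjusted 0.742 and 0.756 over 160 relations; r = 0.289 without the 2 libraries farthest from the median of Bmp4). With this level in the fit, the OVX effect on Bmp4 in young retina was 0.41 ± 0.30 (adjusted p = 0.673), and that on Bmp7 in aged retina was -0.18 ± 0.21.

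Of the receptors, Bmpr2 in young retina had the smallest p of any member in the OVX contrasts of the retina. Its lowest, median and highest levels were 68.50, 72.93 and 79.58 CPM in young sham and 54.87, 63.75 and 71.20 in young OVX retina. The young OVX libraries lay below the sham libraries except for the highest, which reached into the sham range. The log2 fold change was -0.23 ± 0.084 (adjusted p = 0.28), and the mean over both ages was -0.14 ± 0.060 (adjusted p = 0.397). In aged retina Bmpr2 averaged 70.90 ± 8.32 CPM in sham and 68.98 ± 9.97 in OVX animals.

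Bmpr2 of the posterior eye averaged 76.19 ± 9.43 CPM in young sham, 86.66 ± 7.64 in young OVX, 75.71 ± 8.46 in aged sham and 79.67 ± 7.63 in aged OVX animals. The OVX effect in young animals thus had opposite signs in the 2 tissues. The difference of the 2 effects was 0.43 ± 0.13 (SE, unadjusted p = 0.00166, adjusted p = 0.704), and 0 of 10 members were called for this difference, against 0.0175% of all genes. Without the posterior eye libraries of high rod level the difference for Bmpr2 was 0.35 ± 0.15. This value rests on only 2 posterior eye libraries from sham-operated young rats, set against 4 after OVX. At the older age the same limit left 3 against 3, so it is a weak check at either age. By limma-voom 0 of 10 were called too. In aged animals 0 of 10 were called against 0% of all genes, and the smallest p belonged to Bmp7, at 0.42 ± 0.25 (adjusted p = 1), or 0.20 ± 0.24 without the libraries of high rod level.

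Bmpr1a varied little between groups. It averaged 50.65 ± 2.71 CPM in young sham, 48.15 ± 5.04 in young OVX, 50.67 ± 5.37 in aged sham and 47.58 ± 3.69 in aged OVX retina. Its posterior eye averages were 47.30 ± 7.04, 51.71 ± 4.58, 49.36 ± 2.14 and 46.61 ± 4.28. The 95% interval for OVX ran from -0.21 to 0.065 in young retina and from -0.23 to 0.048 in aged retina on the log2 scale, among the narrowest of the 10 genes.

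Chrdl1 was the antagonist with the lower p for OVX, in the posterior eye of young animals. Its lowest, median and highest levels were 16.65, 22.37 and 28.37 CPM in young sham, 22.28, 28.29 and 31.89 in young OVX, 20.15, 24.36 and 27.32 in aged sham, and 22.63, 25.28 and 28.55 in aged OVX posterior eye. Of 6 young OVX libraries, 1 lay below the sham median and the others above it. The log2 fold change was 0.31 ± 0.11 in young animals, with an interval of 0.097 to 0.53 (adjusted p = 0.676), and 0.21 ± 0.077 for the mean of both ages (adjusted p = 0.761). Retina levels of Chrdl1 were 35.12 ± 5.81 CPM in young sham, 36.59 ± 3.71 in young OVX, 32.29 ± 4.35 in aged sham and 33.42 ± 5.20 in aged OVX animals.

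Grem1 was measured least precisely. Retina means were 0.723 ± 0.173 CPM in young sham, 0.747 ± 0.276 in young OVX, 0.719 ± 0.396 in aged sham and 0.829 ± 0.347 in aged OVX animals, from 4 to 26 reads per library. Posterior eye means were 3.53 ± 1.53, 2.98 ± 1.30, 3.01 ± 0.34 and 2.78 ± 0.55 CPM. The interval for OVX in young retina ran from -0.64 to 0.72 on the log2 scale, among the widest of the 10 genes.

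Among the targets, Id3 and Id2 of the posterior eye had the largest OVX differences for the mean of both ages, and neither passed the adjusted test. The lowest, median and highest Id3 levels were 88.52, 159.6 and 194.9 CPM in young sham, 123.5, 192.2 and 236.1 in young OVX, 103.2, 157.4 and 183.8 in aged sham, and 139.5, 177.4 and 226.0 in aged OVX posterior eye. Both OVX groups reached above both sham groups, and all groups overlapped. The log2 fold change for the mean of both ages was 0.28 ± 0.13 (adjusted p = 0.841). For Id2 the corresponding levels were 34.62, 77.33 and 94.58 CPM in young sham, 72.15, 79.55 and 115.8 in young OVX, 63.50, 80.03 and 94.78 in aged sham, and 75.33, 96.29 and 106.7 in aged OVX animals. Id2 overlapped in the same way, and its mean fold change was 0.26 ± 0.12 (adjusted p = 0.841), with 0.27 ± 0.17 in aged animals (adjusted p = 1).

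Id1 in the posterior eye averaged 118.1 ± 22.4 CPM in young sham, 122.8 ± 19.7 in young OVX, 121.0 ± 37.8 in aged sham and 119.5 ± 15.9 in aged OVX animals, with the highest mean 1.04 times the lowest. In the retina Id1 averaged 14.25 ± 2.28, 15.21 ± 1.76, 13.97 ± 1.38 and 15.08 ± 2.34 CPM. Id2 averaged 23.92 ± 4.41, 24.13 ± 1.94, 22.03 ± 1.96 and 22.99 ± 2.32 CPM in the retina, and Id3 65.42 ± 7.58, 72.18 ± 3.77, 68.75 ± 5.00 and 67.67 ± 9.66. The intervals for OVX on Id2 were -0.17 to 0.20 in young and -0.12 to 0.25 in aged retina.

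By sign, 9 of 10 members lay above 0 for OVX in young posterior eye (Grem1 lay below), with a median log2 fold change of 0.19, where 47.2% of all genes lay above 0 and their median was -0.0097. The count was 7 of 10 in aged posterior eye, with a median of 0.082, and 9 of 10 for the mean, with a median of 0.14. In the retina 8 of 10 lay above 0 in young and 4 of 10 in aged animals, with medians of 0.075 and -0.031. These posterior eye counts rest in part on 1 library. Young sham animal 1 was the lowest of its group for 9 of 10 members, and without it 7 of 10 lay above 0 in young animals (median 0.11), with Bmp7 at -0.0073 and Id1 at -0.030, and 7 of 10 for the mean of both ages (median 0.088). Without that animal the mean OVX effect was 0.22 ± 0.11 for Id3, 0.18 ± 0.083 for Id2 and 0.16 ± 0.067 for Chrdl1. Members share animals and libraries, so these counts describe the 10 genes and are not a test.

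**Figure D3:**
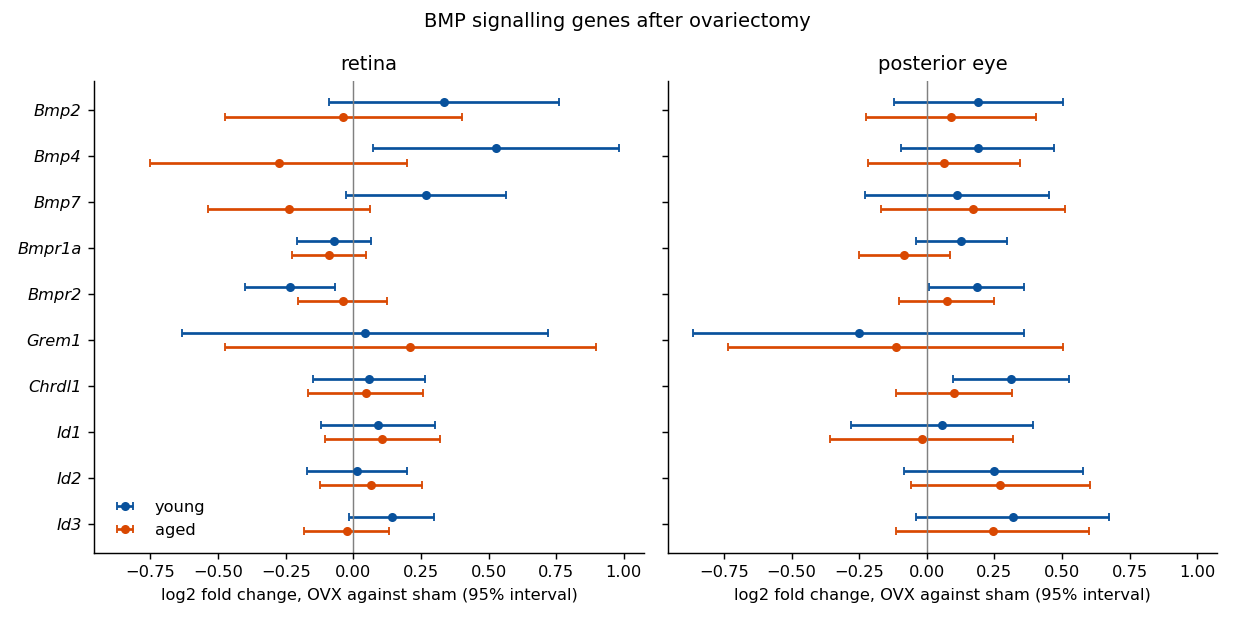
Log2 fold change for OVX against sham (x axis) of the 10 genes (y axis) in retina (left) and posterior eye (right), with points for edgeR estimates in young and aged animals (6 libraries per group) and bars for 95% intervals. Bmp4 and Bmp7 of the retina lie above 0 in young and below 0 in aged animals, and in the posterior eye of young animals 9 of 10 points lie above 0.

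Melanocyte markers, like those of some other cell types, moved with the posterior eye groups. Of 8 markers 7 were measured, none at 0, and their mean level was 6.89 ± 0.52 log2 CPM in young sham, 7.36 ± 0.38 in young OVX, 6.77 ± 0.48 in aged sham and 7.01 ± 0.17 in aged OVX animals. Their summed level ran from 1300 to 4090, 2070 to 4990, 1530 to 3450 and 2280 to 3210 CPM. Which pigmented cells these markers came from was not tested. Pigment epithelium markers stood at 7.07 ± 0.22, 7.04 ± 0.33, 6.71 ± 0.69 and 7.10 ± 0.17 log2 CPM in the same groups. The order of these group means differed from that of the melanocyte markers. Smooth muscle and pericyte markers and myeloid markers had the same order of group means as the melanocyte markers. Schwann cell, endothelial and astrocyte means were also higher in OVX animals at both ages. Those of rods, bipolar cells, ganglion cells, adipocytes and sebaceous gland were lower. Apart from rods, these other levels were not entered in a fit. A fit with the melanocyte level was added after the relations below were seen. With that level in it, 5 of 10 members lay above 0 in young, in aged and in the mean OVX contrast. The mean OVX effect on Id3 was then 0.079 ± 0.092, that on Id2 0.11 ± 0.10, and that on Chrdl1 0.11 ± 0.071 (0.18 ± 0.099 in young animals). Id2 in aged animals stood at 0.17 ± 0.14.

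With age none of the 10 genes passed the test. In the retina 0 of 10 were called for aged against young in sham animals, against 0.0388% of all genes, and 0 of 10 in OVX animals, against 0.0711%. For the posterior eye 0 of 10 were called in sham and in OVX animals, against 0% of all genes in each. DESeq2 and limma-voom called none of the 10. At an unadjusted p under 0.05 there were 0 members in sham and 1 in OVX retina, against 10.7% and 9.23% of all genes, and 0 and 0 in the posterior eye, against 2.93% and 10.1%. The 1 was Bmp4 in OVX retina, at -0.75 ± 0.24, with an interval of -1.22 to -0.28 (adjusted p = 0.289). With the pigment epithelium level in the fit it was -0.58 ± 0.36.

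The members with the smallest p in the other age contrasts were Bmp7 in sham retina at 0.22 ± 0.15 (adjusted p = 0.633, and 0.13 ± 0.15 without animal 18), Bmp4 in sham posterior eye at -0.12 ± 0.14 (adjusted p = 1), and Bmpr1a in OVX posterior eye at -0.15 ± 0.086 (adjusted p = 0.593). Under the melanocyte level Bmp4 stood at -0.061 ± 0.11 and Bmpr1a at -0.088 ± 0.083 in those contrasts. The ranges of young and aged libraries overlapped for all 10 genes in each contrast, and the share of all genes with such overlap was not counted. The contrasts for OVX and for age share groups, so their values are not independent of each other.

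The interaction asks whether the OVX effect in aged animals differed from that in young animals. In the retina 0 of 10 were called (0.0452% of all genes) and 2 had an unadjusted p under 0.05 (6.21% of all genes), both ligands. Bmp4 stood at -0.80 ± 0.33 (adjusted p = 0.756) and Bmp7 at -0.51 ± 0.22 (adjusted p = 0.758). With the pigment epithelium level in the fit these were -0.55 ± 0.54 and -0.39 ± 0.35. In the posterior eye 0 of 10 were called (0% of all genes) and 0 had an unadjusted p under 0.05 (2.97% of all genes), with the smallest p for Bmpr1a at -0.21 ± 0.12 (adjusted p = 1). DESeq2 and limma-voom also called none.

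No other gene of the pathway passed either. Of 49 listed genes, 38 were tested in the retina and 42 in the posterior eye, and 0 were called in each of the OVX, age and interaction contrasts. In young retina, the lowest p for OVX belonged to Sostdc1, an antagonist of BMP and WNT signals, at 0.59 ± 0.14 (adjusted p = 0.147), from 8.43 ± 1.09 to 12.6 ± 1.95 CPM, and to Bmp6 at 0.60 (adjusted p = 0.238). With age in the retina, Bambi, a decoy receptor, stood at -0.39 in OVX animals (adjusted p = 0.12) and Bmp6 at 0.74 in sham animals (adjusted p = 0.165). The lowest p of the posterior eye belonged to Atoh8, a target, at 0.67 and Crim1, a membrane protein that binds BMPs, at 0.29 for OVX in young animals (adjusted p = 0.661 for both), and Fst at 0.60 in aged animals (adjusted p = 1).

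Members varied together between animals of the same group. Group means were subtracted from log2 CPM, Pearson's r and Spearman's rho were taken over the 24 libraries of a tissue, and p-values from 100000 permutations within groups (two-sided) were adjusted over the 45 pairs of a tissue. In the retina 9 pairs passed by r, 8 of them positive, and the same 9 passed by rho. Among posterior eye pairs 8 passed by r, all positive, and 4 of these passed by rho as well.

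In the retina the 3 ligands formed a connected set. Bmp2 and Bmp4 had r = 0.731 and rho = 0.750 (permutation p = 0.00021 and 0.00018, adjusted 0.00472 and 0.0081), and r = 0.716 without the 2 libraries farthest from the median of Bmp2. Bmp4 and Bmp7 had r = 0.718 and rho = 0.677 (permutation p = 0.00036 and 0.00105, adjusted 0.0054 and 0.0118; r = 0.669 without 2 libraries). Bmp2 and Bmp7 had r = 0.655 and rho = 0.662 (permutation p = 0.00197 and 0.00215, adjusted 0.0127 and 0.0134; r = 0.669 without 2). Chrdl1, an antagonist, went with the ligands: with Bmp2 r was 0.765 and rho 0.730 (permutation p = 0.00018 and 0.00039, adjusted 0.00472 and 0.00877; r = 0.727 without 2), and with Bmp4 r was 0.679 and rho 0.620 (permutation p = 0.00069 and 0.00229, adjusted 0.00776 and 0.0134; r = 0.554 without 2).

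Id1 was linked to the same set in the retina. With Chrdl1 it had r = 0.685 and rho = 0.681 (permutation p = 0.00095 and 0.00096, adjusted 0.00855 and 0.0118; r = 0.559 without 2), and with Bmp2 r = 0.640 and rho = 0.668 (permutation p = 0.00298 and 0.00179, adjusted 0.0168 and 0.0134; r = 0.598 without 2). Id1 and Id3, both targets, had r = 0.690 and rho = 0.649 (permutation p = 0.00123 and 0.00239, adjusted 0.00922 and 0.0134). Without 2 libraries their r was 0.618. The negative pair was Bmpr1a and Id1, at r = -0.508 and rho = -0.581 (permutation p = 0.00987 and 0.00517, adjusted 0.0493 and 0.0258; r = -0.458 without 2). None of the 160 relations between a member and a cell type marker level passed in the retina.

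Bmp2, Bmp4, Id2 and Id3 were linked in the posterior eye. Bmp2 and Id3 had r = 0.779 and rho = 0.642 (permutation p = 0.00008 and 0.00324, adjusted 0.0036 and 0.0364; r = 0.715 without the 2 libraries farthest from the median of Bmp2). Bmp2 and Bmp4 had r = 0.723 and rho = 0.648 (permutation p = 0.00067 and 0.00286, adjusted 0.00911 and 0.0364; r = 0.628 without 2), and Bmp4 and Id3 r = 0.713 and rho = 0.633 (permutation p = 0.00056 and 0.00307, adjusted 0.00911 and 0.0364; r = 0.618 without 2). Bmp7 and Id1 had r = 0.678 and rho = 0.719 (permutation p = 0.00119 and 0.00044, adjusted 0.00975 and 0.0198; r = 0.504 without 2). These 4 pairs passed by both measures.

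The other 4 pairs of the posterior eye passed by r and not by rho. Id2 and Id3 had r = 0.691 and rho = 0.545 (adjusted permutation p = 0.00911 and 0.0605; r = 0.533 without 2), Bmp2 and Id2 r = 0.676 and rho = 0.556 (0.00975 and 0.0605; r = 0.547 without 2), and Bmpr1a and Bmpr2 r = 0.644 and rho = 0.561 (0.0137 and 0.0605; r = 0.481 without 2). Chrdl1 and Id3 had r = 0.620 and rho = 0.477 (0.0357 and 0.147); without the 2 libraries farthest from the median of Chrdl1 r fell to 0.379 (permutation p = 0.132), so that this relation rests on those libraries. Id1 and Id3, linked in the retina, had r = 0.47 in the posterior eye, and the difference between the tissues was not tested.

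**Figure D4:**
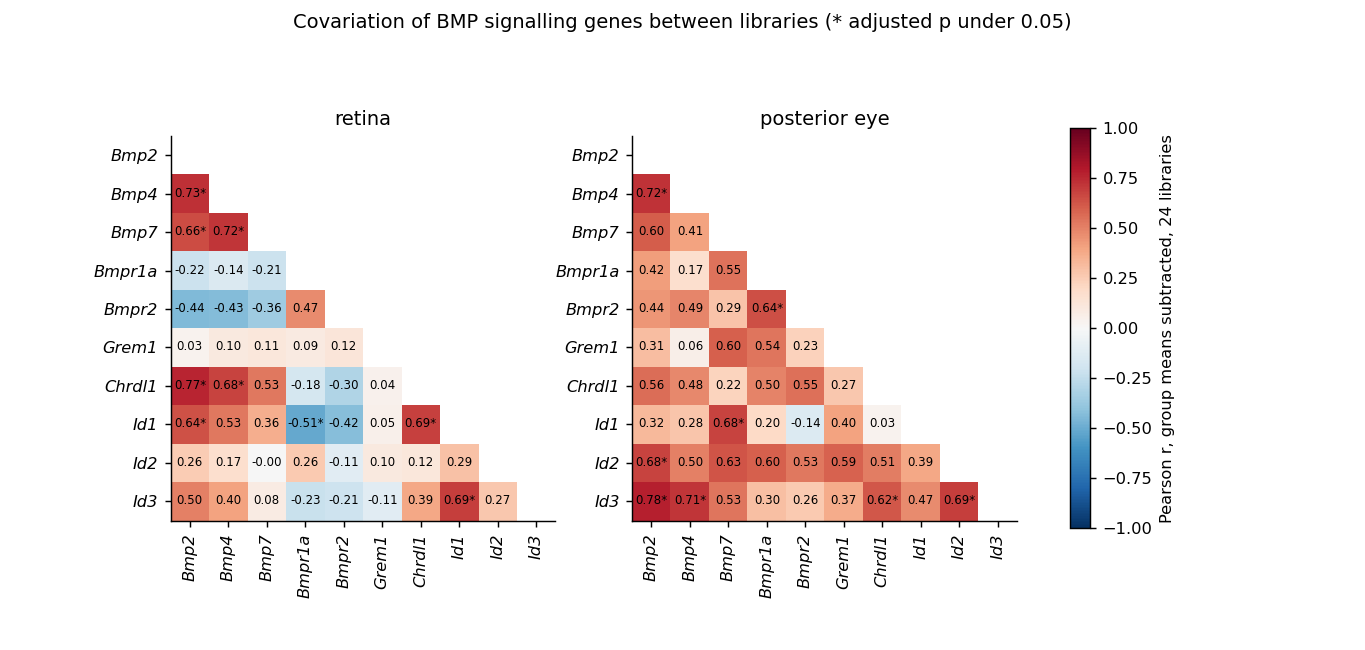
Pearson's r for every pair of the 10 genes (both axes) over 24 libraries with group means subtracted, in the retina (left) and the posterior eye (right), red for positive and blue for negative values, asterisks where the adjusted permutation p was under 0.05. In the retina Bmp2, Bmp4, Bmp7, Chrdl1 and Id1 form the red block, and in the posterior eye the strongest pair is Bmp2 with Id3 at 0.78.

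In the posterior eye the members also varied with the cell type mixture. Of 160 relations with marker levels 17 passed by r, 11 of them positive, and 13 passed by r and rho. Id3 went with the melanocyte level at r = 0.800 and rho = 0.717 (permutation p = 0.00008 and 0.00033, adjusted 0.0032 and 0.0088; r = 0.661 without the 2 farthest libraries), and so did Bmp2 at r = 0.759 and rho = 0.645 (permutation p = 0.00045 and 0.00349, adjusted 0.0103 and 0.0399; r = 0.646 without 2) and Bmp4 at r = 0.722 and rho = 0.700 (permutation p = 0.00031 and 0.00053, adjusted 0.00827 and 0.0121; r = 0.672 without 2). Bmp4 also went with the endothelial level, at r = 0.750 and rho = 0.716 (permutation p = 0.00003 and 0.00013, adjusted 0.0016 and 0.00416; r = 0.667 without 2). Bmp2, Bmp4 and Id3, which varied together, all varied with the melanocyte markers, and the part of the mixture in these pairs was not tested.

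Id1 ran against Muller glia, ganglion cell and rod markers in the posterior eye. Its r was -0.827 with the Muller glia level and rho -0.850 (permutation p = 0.00001 and 0.00003, adjusted 0.0016 for both; r = -0.818 without 2), and -0.799 with the ganglion cell level with rho -0.814 (permutation p = 0.00002 and 0.00005, adjusted 0.0016 and 0.002; r = -0.764 without 2). With the rod level r was -0.679 and rho -0.764 (permutation p = 0.00071 and 0.00003, adjusted 0.0142 and 0.0016; r = -0.647 without 2). The part of the cell mixture in the Id1 level was not tested, and the Muller glia markers are not particular to the retina here, since their summed level ran from 7190 to 10400 CPM in posterior eye groups and from 6840 to 8460 in retina groups. The mean rod level was 7.94 ± 2.04 log2 CPM in young sham, 6.71 ± 2.96 in young OVX, 7.08 ± 2.64 in aged sham and 6.46 ± 2.66 in aged OVX posterior eye.

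**Figure D5:**
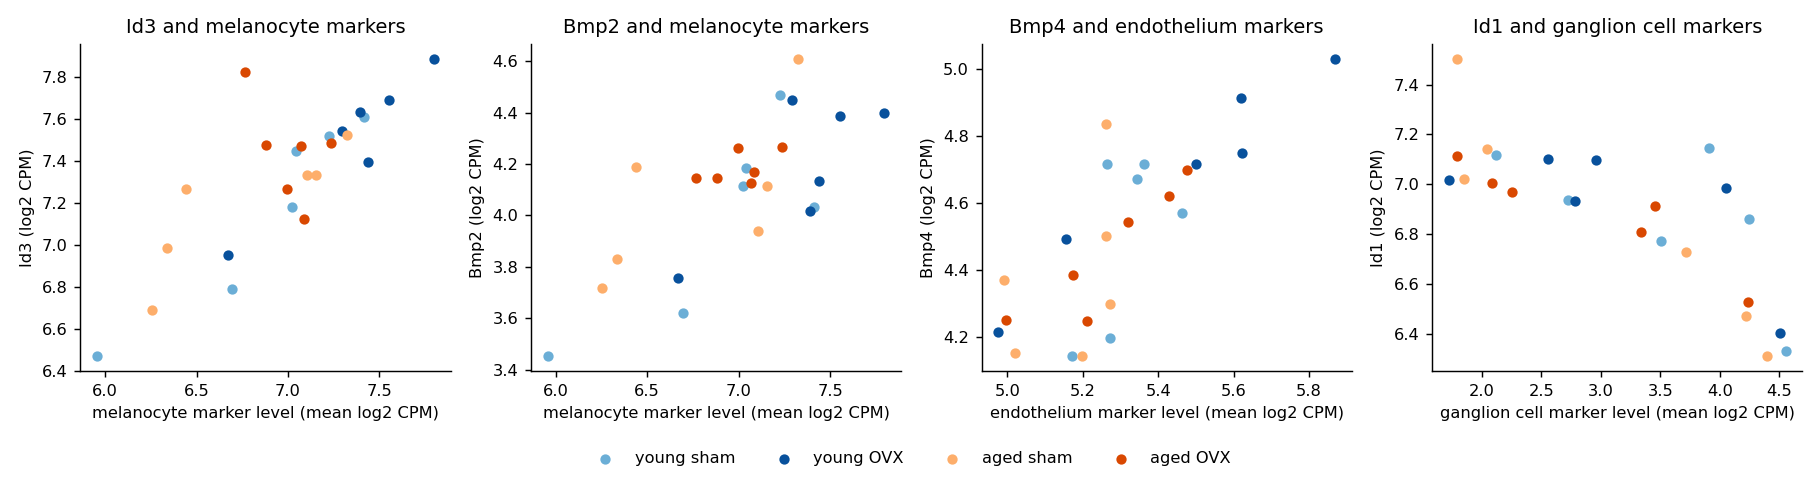
Member level (y axis, log2 CPM) against the mean level of a cell type's markers (x axis, log2 CPM) in the 24 posterior eye libraries, coloured by group, without subtraction of group means. Id3 and Bmp2 climb with the melanocyte level, Bmp4 climbs with the endothelial level, and Id1 declines with the ganglion cell level.

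Across all genes of 2 CPM or more, the genes whose group-centred levels ran most like a member's were listed by r as a description over 24 libraries. In the retina these were Tspo (r = 0.910), Pcolce (0.892) and Ctsh (0.879) for Bmp2, Slc16a12 (0.881), Ackr3 (0.872) and Ltbp2 (0.868) for Bmp4, and Slc13a4 (0.869), Podxl2 (0.846) and Slc13a3 (0.842) for Bmp7. Bmpr2 of the retina had the closest likeness of any member, to Ank2 (0.942), Rictor (0.928) and Fryl (0.925). Chrdl1 ran most like Plod2 (0.907), and Id1 most like Npnt (0.853). Id3 had Nphs1 (0.756), Clptm1l (0.727) and then Id1 (0.691).

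In the posterior eye Id3 ran most like Pth1r (r = 0.928), Snai1 (0.903) and Mesd (0.890), and Id1 most like Tmed9 (0.905) and Tmem134 (0.886). Bmp7 ran most like Tbc1d10a (0.898), Id2 most like Apod (0.879), Bmp4 most like Dchs1 (0.872) and Bmp2 most like Pdpn (0.842). The libraries share cell mixture and depth, and the part of these in the likeness was not tested.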

How the data were processed

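Total RNA (10 ng) was reverse transcribed with a low-input SMART-Seq kit, per the labels' protocols, turned into Nextera XT libraries and sequenced as paired ends. The protocol marks no strand, and reads of a gene and of its overlapping or antisense partner cannot be told apart. Raw gene counts, as deposited by the authors, came in separate tables for retina and posterior eye. Per the submitters' processing notes, STAR 2.7.3a, HTSeq, DESeq2 and the build Rnor_6.0 were used, with settings and annotation not given in the sources used here. Groups and animals came from the labels, and no 2 libraries were identical.

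The 10 members and all lists were chosen with earlier results of these data known. Counts were tested with edgeR 4.0.16 (R 4.3.3, TMM scaling, filterByExpr, quasi-likelihood F test, 1 mean per group over the 24 libraries of a tissue, or over all 48 for contrasts between tissues), and p-values were adjusted by the Benjamini-Hochberg method over all genes tested. SEs were derived as the absolute log2 fold change over the square root of F. The 95% intervals used these SEs with the normal quantile, so a bar can exclude 0 where p is above 0.05. Bmpr2 for OVX in young posterior eye, for example, had 0.009 to 0.36 with an unadjusted edgeR p of 0.0508. Log2 CPM used a prior count of 2. The date-named genes of the posterior eye table, 25 in number, were left out of the fit over both tissues. The script was tested on simulated counts.

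All members are named. Fold changes with p are given where the unadjusted p was under 0.05 or, failing that, for the member with the smallest p; other pathway genes are named where called (up to 5 by p) or else the 2 with the smallest p. The 3 most like genes have the highest r among genes of 2 CPM or more with established symbols, and the text gives a selection of them. Alternatives were RLE scaling, no filter, DESeq2 1.42.0, limma-voom (limma 3.58.1), the groups of a contrast alone, a block, marker levels as covariates, and each library left out. The labels give both tissues of an animal; deviations of the 2 libraries of an animal had a median correlation of 0.058 over 24 pairs. Promoters came from RefSeq GRCr8, and no gene coordinates of the authors' build were used.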

Additional observations from a re-analysis of the deposited data

Results flagged for a closer look

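Of the 80 groups of 6 libraries (10 genes, 4 groups, 2 tissues), 5 held a library set far apart from the others by Dixon's criterion (gap over range above 0.625), where chance gives about 1 group in 20. Id1 stood at 84.45 CPM in the posterior eye of young OVX animal 10, below a next value of 122.2. Grem1 stood at 0.6166 CPM in the posterior eye of young sham animal 1, below a next value of 3.397. Bmp4 stood at 8.066 CPM in the retina of aged OVX animal 23, above 4.552. Bmp7 stood at 18.23 CPM in the retina of aged sham animal 18, above 14.06. Bmpr1a stood at 45.45 CPM in the retina of young sham animal 6, below 51.1.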

How the results depend on the processing

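For OVX, age and their interaction 0 of 10 members were called under every alternative run in both tissues, and between the tissues all 10 were called under every alternative run. This check covered member fold changes with an unadjusted p under 0.05 or, failing that, the smallest p of a contrast. These all kept their sign and their side of the threshold, with one library left out and under the other alternatives. Smaller fold changes did not all keep their sign, such as Bmp7 and Id1 in young posterior eye without young sham animal 1. With the animal as a block, the paired fit between tissues gave Id1 3.16 and Bmpr1a 0.12, and it changed no call of a member. The labels do not say what the replicate numbers within a tissue stand for. Same-numbered libraries of different groups had a median correlation of 0.024 in the retina, with 1 library best with its own number. In the posterior eye the median was 0.35 over 36 pairs (from -0.652 to 0.772), with 6 libraries best with their own number. What same-numbered libraries have in common was not tested. With the numbers as a block 0 members were called. Counts over all genes did move with the tool: over the 12 contrasts within a tissue DESeq2 called 0 to 93 genes and edgeR 0 to 11 (63 and 3 for OVX in young retina, 67 and 0 for the mean of both ages in the posterior eye); the cause was not tested. Without the 2 farthest libraries, 33 of the relations that passed kept their sign and an unadjusted permutation p under 0.05. The remaining 1, Chrdl1 with Id3 in the posterior eye, kept its sign only (r = 0.379). The adjustment over all relations was not repeated without those libraries. Intervals were widest for Grem1, the member with the fewest counts. P-values of contrasts within a tissue measure the spread between animals, 1 library each. Those of the main fit over both tissues treat the 2 libraries of an animal as independent.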
